A study of Homo sapiens with 6 samples.

Results

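The Krüppel-like factors (KLF) are DNA-binding proteins whose zinc fingers recognise GC-rich and CACCC sequences. The members described here are KLF2, KLF3, KLF4, KLF6, KLF7, KLF9, KLF10, KLF11, KLF12 and KLF13. They were taken as all probe sets that the platform annotation assigns to 1 of these 10 symbols and to no other gene, which gave 38 probe sets of 54613 on the array. Of these, 24 probe sets from 8 genes were bright enough to be tested. KLF4 and KLF7 had no tested probe set.

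Total RNA of BCWM1, a long-established human line grown from Waldenström macroglobulinemia (a B cell lymphoma with plasma cell features), was measured on 6 microarrays. One group was the parental line (3 samples), the other was labelled mutated (3 samples). In the series title the mutation is C1013G in CXCR4, a chemokine receptor bound by CXCL12. The sources used here do not give how the mutated cells were made, whether they are 1 clone or whether a vector control was kept. No label says that the samples of a group were separate cultures, and the p-values rest on a spread between samples that may be technical only. The question is which KLF mRNA levels differ between the 2 groups of cells.

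In lymphocytes the family is known for control of quiescence, homing and differentiation. KLF2 is known to keep resting lymphocytes quiescent and to drive the gene of the exit receptor S1PR1, and its own gene is driven by MEF2 factors downstream of the kinase ERK5 and by FOXO1. By textbook grouping, KLF3, KLF8 and KLF12 repress through the CtBP corepressors, KLF9, KLF10, KLF11 and KLF13 recruit the SIN3A corepressor, and KLF2, KLF4, KLF6 and KLF7 act mainly as activators. Several members are also known to act on GC boxes in the promoters of one another.

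Promoter sequence was available from RefSeq (build GRCh38.p14) for 8 of the 10 members, in 15 windows, but not for KLF3 or KLF10. The 250 bases before each start were searched on both strands. The sequences of 3 members are shown because their genes moved in different directions and their windows hold the sites the family is known to read. Capitals mark GC boxes (GGGCGG or its complement) and, in KLF2, the MEF2 site. The KLF2 window is chr19:16324576-16324825 on the plus strand, the KLF13 window chr15:31326585-31326834 on the plus strand, and the KLF6 window chr10:3785210-3785459 on the minus strand, each written 5′ to 3′ in the direction of its gene.
KLF2: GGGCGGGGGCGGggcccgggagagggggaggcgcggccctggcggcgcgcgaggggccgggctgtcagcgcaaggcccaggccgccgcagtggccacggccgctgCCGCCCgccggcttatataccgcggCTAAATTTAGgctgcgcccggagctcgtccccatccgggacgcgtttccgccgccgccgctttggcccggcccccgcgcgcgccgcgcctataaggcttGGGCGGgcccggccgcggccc
KLF13: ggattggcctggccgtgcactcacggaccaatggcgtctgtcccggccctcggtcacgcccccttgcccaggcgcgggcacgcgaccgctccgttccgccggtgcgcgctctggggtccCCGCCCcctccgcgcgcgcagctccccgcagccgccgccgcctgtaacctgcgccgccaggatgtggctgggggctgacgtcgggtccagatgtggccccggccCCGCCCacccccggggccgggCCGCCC
KLF6: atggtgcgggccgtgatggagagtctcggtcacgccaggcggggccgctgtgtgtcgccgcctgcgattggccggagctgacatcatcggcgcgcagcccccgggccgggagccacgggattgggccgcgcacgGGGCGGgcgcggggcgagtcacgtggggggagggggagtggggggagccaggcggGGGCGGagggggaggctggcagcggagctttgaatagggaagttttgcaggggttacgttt
The KLF2 window held 4 GC boxes and 1 MEF2 site, CTAAATTTAG, which lay 120 to 111 bases before the start. Of the 8 members searched, only KLF2 had a MEF2 site, and 0.515% of 35116 promoter windows of the same length held one. No window of a member, KLF2 included, held a FOXO site (GTAAACA or its complement), which 2.98% of all windows held. GC boxes were common: 42.6% of all windows had at least 1. The window of KLF13 (which fell) held 3 and that of KLF6 (which rose) held 2. Windows of members held from 0 (KLF9) to 6 (a KLF11 window). A CACCC box (CCACCC or its complement) was found in KLF13, in 2 KLF12 windows and in 1 KLF7 window, overlapping GC boxes in KLF13 and in 1 of the KLF12 windows, and in 31.3% of all windows. These matches describe letters in the windows and not bound sites.

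Median intensity was 28.46 to 29.13 in parental and 30.93 to 31.83 in mutated samples. Markers of B cells (5 of 5) and of plasma cells (6 of 6) lay above 31.83 in both groups, while 0 of 5 T cell and 0 of 5 myeloid markers did. The summed plasma cell markers ran from 12767 to 13334 in parental and from 9125 to 9954 in mutated samples. Of these, TNFRSF17 fell most (parental mean 3417, mutated mean 911), and SDC1, CD38 and PRDM1 were also lower. XBP1 (2852 and 2655) and IRF4 (5128 and 5058) changed little. PECAM1, the 1 of 4 endothelial markers above the median, carried most of a sum of 351 to 356 in parental and 552 to 616 in mutated samples. Of 4 stromal markers 2 lay above it (sums of 734 to 819 and 466 to 565). The part of these markers in the KLF changes was not tested. On the brightest CXCR4 probe set, parental values were 4703 to 4800 and mutated values 4206 to 4357, and its other probe sets were lower as well (log2 changes of −0.50 and −0.57). These levels cannot show which CXCR4 allele was read.

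The brightest tested probe set (highest mean over the 6 arrays) stood for each gene. Of the 8 tested members, 5 were higher in mutated cells (KLF3, KLF6, KLF9, KLF10 and KLF12) and 3 were lower (KLF2, KLF11 and KLF13) at the 0.05 threshold on p-values from limma, adjusted by Benjamini-Hochberg over all 32768 tested probe sets. Over all 13644 genes tested, 49.0% passed: 30.1% were higher and 18.9% lower. The 3 mutated values lay outside the range of the 3 parental values in 8 of 8 members, against 61.2% of all genes. On the scale log2(intensity + 16), only KLF2 also changed at least 2-fold, which 5.33% of all genes did; on linear intensity KLF3 too was past it, with a ratio of means of 2.41. The median log2 change of the 8 genes was 0.30, against 0.038 over all genes. The members were proposed with earlier results of these data known, and a probe set had to be bright to be tested, so these counts describe the 8 genes and are no test of the family. Of calls over all genes, 61.5% were higher. That share was 49.6% after quantile normalization and 46.1% after centring arrays on their medians, but each of the 8 genes kept its direction and its call under both.

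**Figure D1:**
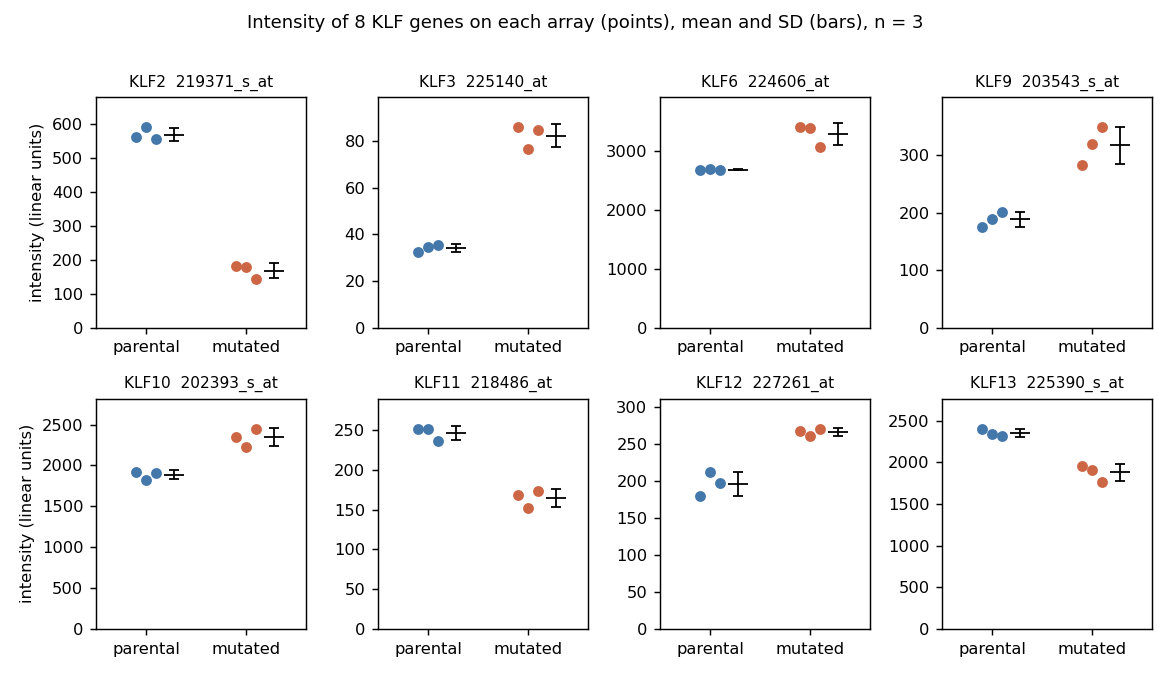
Intensity (linear units, axis from 0) of the probe set that represents each of 8 KLF genes, with a point per array for parental (blue) and mutated (orange) samples and the mean and SD of 3 beside them. Mutated points lie below the parental points in KLF2, KLF11 and KLF13 and above them in the other 5 genes; levels of different genes are not comparable.

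Among the members that act mainly as activators, KLF2 fell and KLF6 rose. KLF2 (probe set 219371_s_at) read 559, 589 and 554 in parental samples and 183, 178 and 143 in mutated samples. Every mutated value was far below every parental value. The mean fell from 568 ± 18.6 to 168 ± 21.8 (SD, n = 3), a ratio of 3.38, and the log2 change was −1.67 (standard error 0.093; adjusted p = 2.8e-05 by limma, Benjamini-Hochberg). Changes are on the scale log2(intensity + 16), which understates those of dim probe sets. The other KLF2 probe set, 226646_at, was dim, at 10.2, 8.88 and 27.5 in parental and 7.93, 7.12 and 8.68 in mutated samples, and was not tested. Its mutated values also lay below the parental ones, though parental replicates 1 and 2 were close to them.

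KLF6, an early-response factor also known as a growth suppressor, was bright. Its brightest probe set, 224606_at, read 2682, 2688 and 2671 in parental and 3398, 3397 and 3072 in mutated samples. Each mutated value was above each parental value, with mutated replicate 3 the lowest of its group. The mean rose from 2680.0 ± 8.73 to 3289 ± 188 (SD, n = 3), which on the log2 scale was 0.29 (standard error 0.057; adjusted p = 0.0061 by limma, Benjamini-Hochberg). The other 3 bright probe sets rose as well, by 0.40 (1555832_s_at), 0.38 (208960_s_at) and 0.35 (208961_s_at). The fifth, 211610_at, was dim (42.0 ± 6.28 and 44.8 ± 7.39, SD, n = 3) and did not pass, at 0.068 with a 95% interval from −0.21 to 0.34.

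KLF4, known in B cells as a brake on proliferation, and KLF7 gave no level that could be compared. The 2 KLF4 probe sets read between 3.80 and 22.2 and the 5 KLF7 probe sets between 2.06 and 17.3 over all 6 arrays, under the lowest array median of 28.46. Their groups overlapped on every probe set. With no filter on dim probe sets, 0 of the 14 untested member probe sets passed, and the smallest adjusted p among them was 0.24 (limma, Benjamini-Hochberg). A value this low does not show that the mRNA was absent.

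The members that bind CtBP, KLF3 and KLF12, were both higher in mutated cells. KLF3, a repressor that also acts in B cell development, read 32.4, 34.7 and 35.5 in parental and 85.8, 76.5 and 84.6 in mutated samples on probe set 225140_at. Parental values were close to the array medians, and the mutated values were well above them. The mean rose from 34.2 ± 1.61 to 82.3 ± 5.05 (SD, n = 3), a ratio of 2.41, and the log2 change was 0.97 (standard error 0.059; adjusted p = 4.0e-05 by limma, Benjamini-Hochberg). The other tested KLF3 probe sets gave smaller values. That of 225133_at was 0.24 (adjusted p = 0.030), a call lost under 10 of the 15 alternatives run on it, and that of 219657_s_at was 0.13 and did not pass (adjusted p = 0.10; both limma, Benjamini-Hochberg). Averaged over its probe sets, KLF3 gave 0.45 (adjusted p = 6.1e-04 by limma, Benjamini-Hochberg).

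KLF12, a repressor first known from the AP-2alpha gene, read 179, 212 and 198 in parental and 268, 261 and 271 in mutated samples on its brightest probe set, 227261_at. No mutated value was under the highest parental value. The mean rose from 196 ± 16.3 to 267 ± 5.30 (SD, n = 3), which on the log2 scale was 0.42 (standard error 0.067; adjusted p = 0.0027 by limma, Benjamini-Hochberg). The rise was seen on 1 of 5 tested probe sets. The other 4 were dimmer, ran from −0.14 (206966_s_at) to 0.26 (206965_at) and did not pass, with adjusted p from 0.071 to 0.46, and averaged over its probe sets the gene gave 0.14 (adjusted p = 0.075; all limma, Benjamini-Hochberg). Leaving out 1 sample changed the call on 2 of them: 206966_s_at was −0.31 without mutated replicate 3 (adjusted p = 0.021) and 206965_at was 0.33 without parental replicate 3 (adjusted p = 0.039; both limma, Benjamini-Hochberg).

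The members that recruit SIN3A were split: KLF9 and KLF10 were higher and KLF11 and KLF13 lower. KLF9, a gene induced by glucocorticoid and thyroid hormone, read 175, 188 and 202 in parental and 283, 319 and 348 in mutated samples on probe set 203543_s_at. The lowest mutated value was well above the highest parental one. The mean rose from 188 ± 13.1 to 316 ± 32.6 (SD, n = 3), which on the log2 scale was 0.70 (standard error 0.088; adjusted p = 9.3e-04 by limma, Benjamini-Hochberg). On 203542_s_at the rise was 0.41, from 99.6 ± 11.5 to 137 ± 4.74 (SD, n = 3), a call lost with quantile normalization (0.21, adjusted p = 0.075 by limma, Benjamini-Hochberg). That of 228474_s_at was 0.23 and was lost under 10 of the 14 alternatives run on it, and the dim 203541_s_at gave −0.094 and did not pass. Averaged over its probe sets KLF9 gave 0.31 (adjusted p = 0.0019 by limma, Benjamini-Hochberg).

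KLF10, a gene induced early by TGF-beta, has 1 probe set, 202393_s_at. It read 1920, 1821 and 1913 in parental and 2352, 2229 and 2450 in mutated samples. The groups did not overlap. The mean rose from 1885 ± 55.5 to 2344 ± 111 (SD, n = 3), which on the log2 scale was 0.31 (standard error 0.056; adjusted p = 0.0044 by limma, Benjamini-Hochberg).

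KLF11, the closest relative of KLF10 and likewise induced by TGF-beta, moved the other way. On 218486_at it read 252, 251 and 237 in parental and 168, 152 and 173 in mutated samples. Every mutated value was under every parental value. The mean fell from 246 ± 8.61 to 164 ± 11.1 (SD, n = 3), which on the log2 scale was −0.54 (standard error 0.063; adjusted p = 6.6e-04 by limma, Benjamini-Hochberg). Its other probe set read 8.04 to 14.7 and was not tested.

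KLF13, known in T cells as an activator of the chemokine gene CCL5, fell on both of its brighter probe sets. The brightest, 225390_s_at, read 2405, 2339 and 2315 in parental and 1961, 1913 and 1765 in mutated samples. The groups did not overlap, with mutated replicate 3 the lowest. The mean fell from 2353 ± 46.7 to 1880 ± 103 (SD, n = 3), which on the log2 scale was −0.32 (standard error 0.057; adjusted p = 0.0041 by limma, Benjamini-Hochberg). On 219878_s_at the change was −0.34, from 314 ± 10.3 to 245 ± 3.11 (SD, n = 3). The other 2, 1564463_at (0.16) and 230094_at (−0.11), were dim and did not pass. Averaged over its probe sets KLF13 gave −0.15 (adjusted p = 0.22 by limma, Benjamini-Hochberg).

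Over all 24 tested KLF probe sets, 11 rose, 4 fell and 9 did not pass, so that 62.5% passed, against 47.5% of all 32768 tested probe sets (30.9% higher and 16.6% lower). Groups did not overlap on 17 of the 24, against 57.8% of all tested probe sets. The 9 that did not pass were dim, with means of at most 44.7. The lowest mean of a member probe set that passed was 31.7. With all 6 samples, in no gene did tested probe sets pass in opposite directions. Without mutated replicate 3, KLF12 206966_s_at passed as lower (adjusted p = 0.021 by limma, Benjamini-Hochberg) while KLF12 227261_at stayed higher. The filter on dim probe sets ran between KLF9 230636_s_at (mean log2 value 5.08, left out) and KLF13 1564463_at (5.14, kept).

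**Figure D2:**
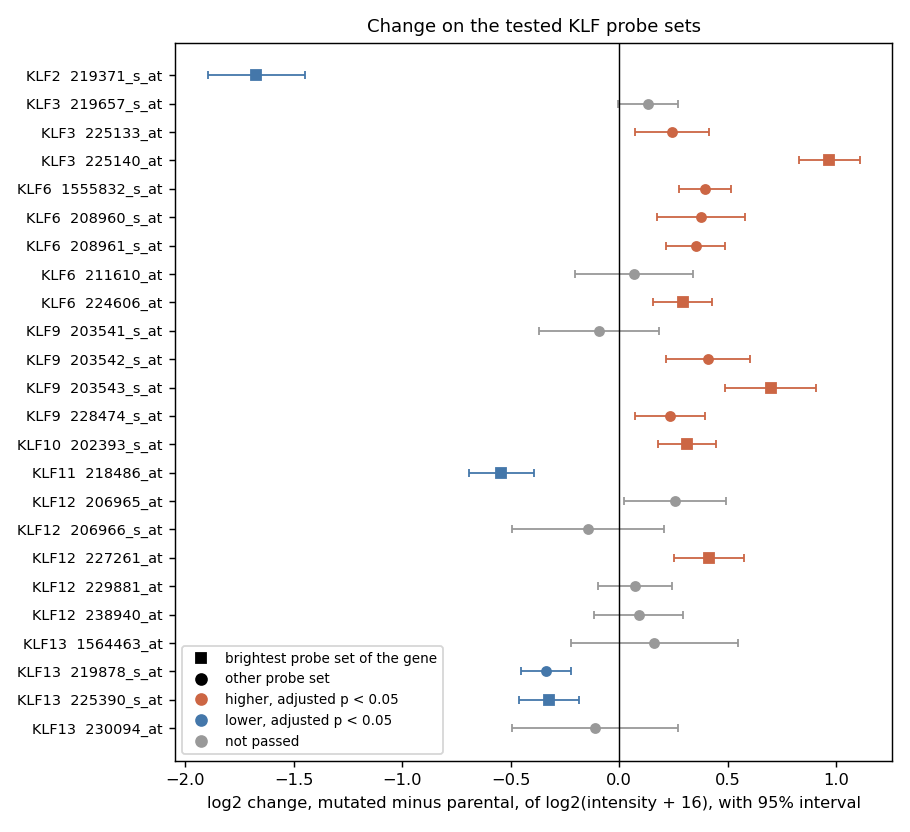
Log2 change (mutated minus parental, of log2(intensity + 16)) of each of 24 tested KLF probe sets with its 95% interval from limma, 3 arrays a group; squares are the brightest probe set of a gene, and colour shows whether it passed. KLF2 at −1.67 lies far from the rest, and grey points, which did not pass, occur in KLF3, KLF6, KLF9, KLF12 and KLF13.

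The rest of the KLF and SP family was compared as a list of related genes, of which 8 of 17 were tested. KLF8 rose, SP4 and SP8 fell, and 5 did not pass (SP1, SP2, SP3, KLF15 and KLF16), so that 37.5% passed, against 49.0% of all genes. The list's median log2 change was −0.024. KLF8, the third member of the group that binds CtBP, rose from 112 ± 10.5 to 199 ± 10.9 (SD, n = 3), or on the log2 scale 0.76 (standard error 0.076; adjusted p = 3.6e-04 by limma, Benjamini-Hochberg), and by 0.86 on its other probe set. SP4, a close relative of SP1, changed by −0.21 and by −0.42 on its 2 probe sets, and the dim SP8 by −0.40. SP1, the most studied GC box factor, was at 0.064 on its brightest probe set (95% interval from −0.086 to 0.21). Its 224760_at (0.19, adjusted p = 0.043) and dim 214732_at (0.25, adjusted p = 0.042) were higher, and 1553685_s_at did not pass. SP3 was at 0.0073 (−0.14 to 0.15) on its brightest probe set. Its dim 227537_s_at was lower (−0.43, adjusted p = 4.5e-04) and 232529_at higher (0.30, adjusted p = 0.0066), while 229217_at and 238035_at did not pass (all limma, Benjamini-Hochberg).

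Of 20 tested genes that lie upstream of KLF genes, 5 rose, 4 fell and 11 did not pass (45.0% passed, against 49.0% of all genes). FOXO1 and FOXO3, forkhead factors, were lower. FOXO1 went from 72.5 ± 1.56 to 34.5 ± 4.22 and FOXO3 from 980 ± 45.5 to 702 ± 49.8 (SD, n = 3), log2 changes of −0.81 and −0.47. Their other probe sets also fell, apart from the dim 228484_s_at of FOXO1 (−0.0066) and 231548_at of FOXO3 (0.094). On the route from ERK5 to MEF2, MAPK7, which encodes ERK5, rose from 29.8 ± 1.67 to 64.6 ± 5.44 and MEF2A from 683 ± 6.36 to 926 ± 31.6 (SD, n = 3), log2 changes of 0.81 and 0.43. Parental MAPK7 values were close to the array medians. KLF2 fell while the brightest probe sets of MAPK7 and MEF2A rose, and a link between these mRNA levels was not tested. MEF2A rose on 3 of 4 tested probe sets, and the other, 208328_s_at, gave 0.10 and did not pass. MEF2C (−0.030, 95% interval −0.15 to 0.089) and MEF2D (0.0022, −0.13 to 0.13) did not pass on their brightest probe sets, while another MEF2D probe set, 203003_at, was lower (−0.16; adjusted p = 0.045 by limma, Benjamini-Hochberg). On the TGF-beta route, which induces KLF10 and KLF11, the signal carrier SMAD3 fell from 741 ± 12.0 to 336 ± 15.7 and the receptor TGFBR1 rose from 858 ± 26.2 to 1095 ± 32.1 (SD, n = 3), log2 changes of −1.10 and 0.35. The other TGFBR1 probe sets gave 1.20 and −0.16, the latter dim and not passed. Adjusted p of the 6 changes was from 1.4e-05 to 0.0018 (limma, Benjamini-Hochberg). The count that rose was 3 without parental replicate 1 or without parental replicate 2. SMAD4 did not pass on its brightest probe set (0.13, adjusted p = 0.059 by limma, Benjamini-Hochberg). Its 235725_at (0.70) and 1565703_at (0.83) were higher (adjusted p = 1.2e-04 and 5.5e-05 by limma, Benjamini-Hochberg), and 202526_at did not pass. SMAD2 was at −0.037 on its brightest probe set and did not pass. Of its other probe sets, only 226563_at passed (0.37, adjusted p = 0.0024 by limma, Benjamini-Hochberg).

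Corepressors, coactivators and turnover factors of the family were mixed: of 16 tested, 4 rose, 5 fell and 7 did not pass (56.2% passed, against 49.0% of all genes). CTBP2, the partner of KLF3, KLF8 and KLF12, fell from 84.3 ± 11.1 to 39.9 ± 4.61 (SD, n = 3), or on the log2 scale −0.84. It fell on 4 of 5 tested probe sets, and the other gave 0.15 and did not pass. CTBP1 changed by −0.20 and is brighter, at 1996 ± 64.9 and 1736 ± 26.7 (SD, n = 3). SIN3A did not pass on its brightest probe set (−0.15, adjusted p = 0.16 by limma, Benjamini-Hochberg). Its 238005_s_at was lower (−0.26, adjusted p = 0.012 by limma, Benjamini-Hochberg), and its other probe sets were dim and not tested. SIN3B fell by 0.25 on its brightest probe set, but not as the mean over its probe sets (−0.051, adjusted p = 0.55 by limma, Benjamini-Hochberg). SAP30, a subunit of the SIN3 complex, rose by 0.38 and the deacetylase genes HDAC3 and HDAC1 by 0.38 and 0.22. HDAC1 did not pass with median centring (0.14, adjusted p = 0.060 by limma, Benjamini-Hochberg). FBXW7, a ubiquitin ligase subunit that targets KLF2 protein, fell by 0.34, from 2605 ± 121 to 2054 ± 12.1 (SD, n = 3), and on its other 3 probe sets. WWP1, a ubiquitin ligase that also acts on KLF2, rose by 0.30.

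Reported targets of KLF proteins were mostly lower: 14 of the 17 that were tested passed (82.4%, against 49.0% of all genes), 10 of them lower and 4 higher (against 18.9% lower and 30.1% higher over all genes), with a median log2 change of −0.23. The list holds targets that are activated and targets that are repressed, and it was written with earlier results of these data known. Of single targets, S1PR1, the exit receptor, read 86.5, 94.9 and 94.6 in parental and 33.3, 42.8 and 38.3 in mutated samples, with no overlap, a log2 change of −0.999 (standard error 0.077; adjusted p = 1.2e-04 by limma, Benjamini-Hochberg). ITGB7, an integrin chain of gut homing, went from 1331 ± 42.2 to 1062 ± 15.2 and CCR7, a receptor that guides cells into lymph nodes, from 5067 ± 80.8 to 3800.2 ± 105 (SD, n = 3), log2 changes of −0.32 and −0.41. The largest falls were in CXCR5, the follicle homing receptor (−2.98; its mutated mean of 9.27 was under the array medians), and PRDM1, the plasma cell factor BLIMP1 (−1.59), which is also one of the plasma cell markers that were lower. Those that rose were CCND1 (1.25), CR2 (1.02), CCL5 (0.65) and CDKN1B (0.30). CCL5 rose on 3 of 3 probe sets while KLF13, its known activator in T cells, fell, and a link between these levels was not tested.

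**Figure D3:**
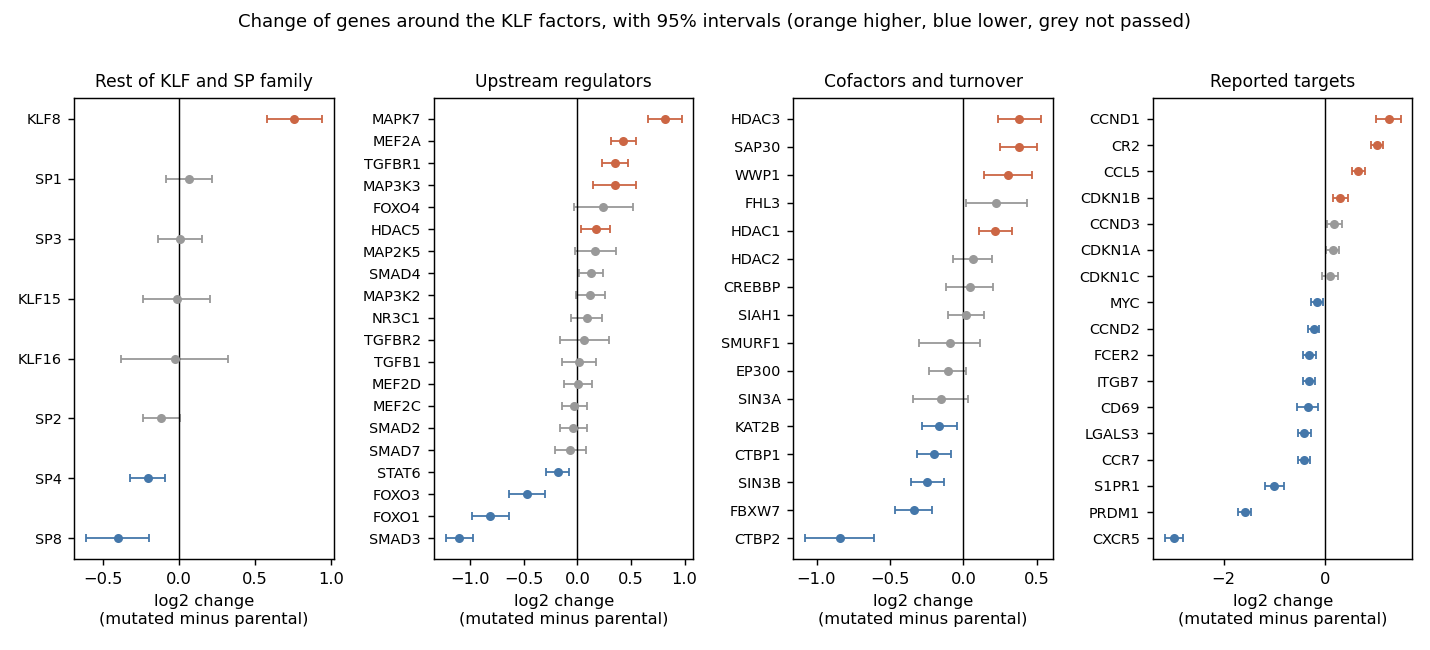
Log2 change (mutated minus parental) with its 95% interval from limma for the tested genes of 4 lists, 3 arrays a group, 1 point a gene; orange genes were higher, blue lower, grey did not pass. The reported targets hold 10 blue and 4 orange genes, from CXCR5 at −2.98 to CCND1 at 1.25.

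Genes whose profile was most like that of a member were found by the distance between profiles over the 6 samples (log2 values minus the parental mean). For KLF2 the nearest were PJA1 (distance 0.14), TENM2 (0.15) and PDE10A (0.17), with log2 changes of −1.65, −1.66 and −1.68. For KLF3, the member with the largest rise, they were DYRK2 (0.055), GIMAP6 (0.061) and AAMDC (0.082), with 0.97, 0.94 and 0.98. With 2 groups of 3, such a ranking mainly reads the size of the group difference.

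Noncoding genes next to members were dim. KLF9-DT, which starts near KLF9 on the other strand, read 24.03, 29.9 and 35.8 in parental and 21.5, 20.1 and 24.5 in mutated samples, which overlap, and both KLF3-AS1 probe sets read at most 7.83. These noncoding genes were looked at after the other values were seen.

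The 8 brightest probe sets kept sign and call in every alternative that could be run on the same probe set. With the dimmest 60% left out, no KLF3 probe set was tested. Of the 7 genes left there, 4 were higher and 3 lower. KLF2 ran from −1.78 to −1.45 and KLF3 from 0.57 to 1.24, the lowest at a pseudocount of 64 and the highest at a pseudocount of 1. As means over their probe sets KLF12 and KLF13 lost their call, and KLF13 also had no call where its probe sets with an _s_at suffix were left out.

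**Figure D4:**
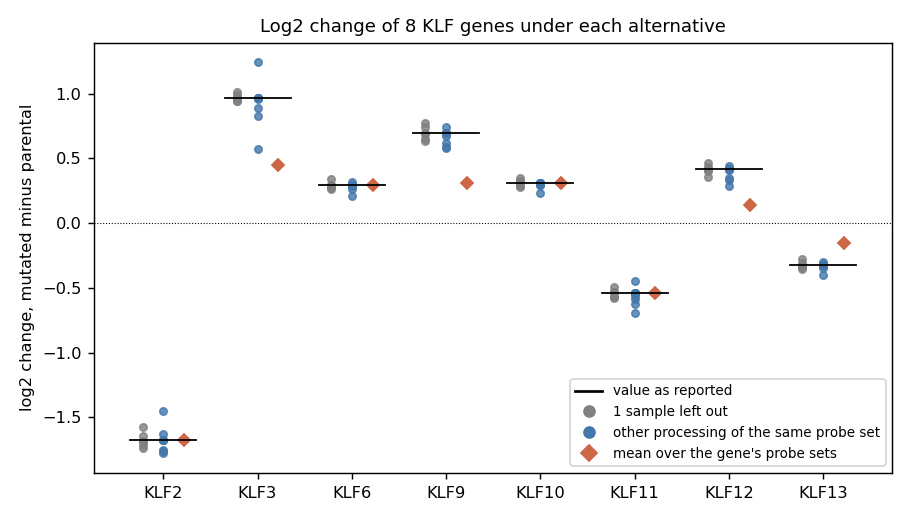
Log2 change (mutated minus parental) of 8 KLF genes as reported (black line), with 1 sample left out (grey), with other processing of the same probe set (blue) and as the mean over the gene's tested probe sets (orange diamond). No point crosses 0, and the diamonds of KLF3, KLF9, KLF12 and KLF13 lie nearer to 0 than the lines.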

How the data were processed

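The authors' deposited table holds linear intensity values of 54613 probe sets on 6 arrays. Biotin-labelled cRNA was hybridised, per the labels' protocols. How probes were summarised, corrected for background and scaled is, in the sources used here, not stated. The platform annotation gave 1 symbol to 41091 probe sets, several to 1801 and none to 11721, and 41037 were matched by Entrez ID to RefSeq names (0 changed). Here, values were transformed as log2(intensity + 16), the dimmest 40% of probe sets (lowest mean over 6 samples) were left out, and limma 3.58.1 in R 4.3.3 (lmFit and eBayes, two-sided) was run on the other 32768, group as the only term, Benjamini-Hochberg adjustment over all of them, threshold 0.05. The procedure was tested on simulated data with independent normal noise, in which 200 of 32768 probe sets were shifted. Of shifts of 0.5 and of 1 on the log2 scale, 52% and 88% were recovered. In that run 7 probe sets that had not been shifted were also called. With none shifted, 0 probe sets were called. Far fewer probe sets were shifted there than passed in the real data, so these shares may not carry over. The 6 arrays limit the precision, most for dim probe sets.

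The members and lists were chosen with earlier results of these data known. Every member was named with all its probe sets. Of each other list, up to 3 genes in each direction with the smallest adjusted p were named, with S1PR1, ITGB7 and CCR7 whatever their values, and genes of nearest profile. The rule named 1 further target, which is not analysed here. CTBP1, WWP1, CDKN1B, MEF2C, MEF2D, SIN3A, SMAD2, SMAD4, SP1, SP3, KLF15, KLF16, SP2 and other probe sets were named after their values were seen. Alternatives were scaling, filter, variance model, array weights, pseudocount, the replicate number as a block, the choice of probe sets, and each sample left out. Plots used Python 3.11.15 and matplotlib 3.10.9.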

Additional observations from a re-analysis of the deposited data

How the results depend on the processing

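With only probe sets without the suffixes _s_at, _x_at and _a_at, which leaves fewer to test, 3 KLF genes were higher and 1 lower (against 5 and 3), 4 KLF probe sets were higher and 1 lower (against 11 and 4), 2 upstream regulators were lower (against 4) and 2 cofactors higher (against 4). KLF2, KLF9 and KLF10 have no tested probe set of that kind. With the dimmest 60% left out, 1 gene of the rest of the family was lower (against 2). With 1 sample left out, upstream regulators that were higher ran from 3 to 5. Probe sets that did not pass turned sign: KLF6 211610_at (−0.052 with quantile normalization, −0.0109 with median centring, and from −0.014 without mutated replicate 2 to 0.16 without mutated replicate 3), KLF12 229881_at (−0.045 and −0.0066 with those scalings), KLF9 203541_s_at (from −0.19 without parental replicate 3 to 7.5e-04 without parental replicate 1), KLF13 1564463_at (from −0.0040 without parental replicate 1 to 0.26 without mutated replicate 3) and KLF13 230094_at (from −0.26 without mutated replicate 1 to 0.046 without mutated replicate 3); the cause was not tested. Of 24 tested KLF probe sets, 14 kept sign and call under every alternative. The labels do not say that replicate numbers pair samples. Deviations from the group mean correlated at 0.11, 0.027 and 0.11 between samples of numbers 1, 2 and 3, and 6 of 6 samples correlated best with their own number, a hint from the data only. With the replicate block 5 KLF genes were higher and 3 lower, and 10 KLF probe sets were higher and 4 lower. The one member call it ended was KLF9 228474_s_at (limma, adjusted p = 0.051).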
